A study of Homo sapiens with 6 samples.

Results

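The genes described here encode the subunits of the transcription factor NF-κB and the proteins that hold it in check: NFKB1, NFKB2, REL, RELA, RELB, NFKBIA, NFKBIE, NFKBIZ, TNFAIP3 and BIRC3. They were chosen by name, with earlier results of these data known. Every probe set whose only gene symbol in the platform annotation was one of these names was taken. A probe set is a group of short probes on the array that read one transcript region together. This gave 19 of the 54613 probe sets that are not controls. They cover 9 of the 10 genes, with 5 probe sets for REL, 3 for NFKB2, 2 each for RELA, NFKBIA, NFKBIZ and TNFAIP3, and 1 each for NFKB1, RELB and NFKBIE. BIRC3 had 0 probe sets under this rule, so no level is given for it.

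RNA came from MDA-MB-231, an established line of invasive, triple-negative breast cancer cells, and was read on Affymetrix U133 Plus 2.0 arrays. One group of 3 arrays held cells with a short hairpin RNA against ATAD3A (shATAD3A), an ATPase of the inner mitochondrial membrane, and the other 3 held cells with a hairpin against GFP (shGFP), a gene these cells do not carry. Both groups carried a pLKO.1 lentivirus, had 2 weeks of selection with puromycin at 1.0 μg/ml, and were taken at passage 2, and the labels name no cytokine or other stimulus. The labels do not say how many ATAD3A hairpins were used, whether the infected cells were cloned, or whether replicates came from separate cultures. The p-values therefore reflect nothing beyond the spread among these arrays, and that spread may be technical. Per the design, the comparison asks which transcripts had a different mean level in shATAD3A and shGFP cells. In bulk RNA of this kind, fewer cells that express a gene and less of its RNA per cell cannot be told apart. Values are log2 expression values, a change is knockdown minus control on that scale, ± is SD over n = 3 arrays unless SE is written, and adjusted p-values are from limma fits with Benjamini-Hochberg adjustment over all probe sets, or over all genes where said, with a threshold of 0.05.

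NF-κB is a dimer built from the products of NFKB1, NFKB2, RELA, REL and RELB. In resting cells IκB proteins keep it in the cytoplasm. The IκB kinase (IKK) complex marks IκB for destruction, and the dimer then enters the nucleus and binds κB sites. Among the genes it switches on are those for IκBα (NFKBIA), IκBε (NFKBIE) and the ubiquitin-editing enzyme A20 (TNFAIP3), which end the response, and for IκBζ (NFKBIZ), a nuclear IκB that acts on the promoters of a subset of target genes. In MDA-MB-231 and other basal-like breast cancer cells the pathway is known for basal activity and for driving cytokine expression.

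The targeted gene was read first. ATAD3A stood at 7.73, 7.78 and 7.80 on the control arrays and at 7.41, 7.03 and 7.39 on the knockdown arrays, a change of -0.49 ± 0.11 (SE; limma adjusted p = 0.0220 over probe sets). That is a percent change of -29.0%. The probe set behind these values is of the x_at type, whose probes can match more than 1 transcript. The share of its signal that came from other transcripts was not tested. Array medians ran from 3.16 to 3.23, and correlations across probe sets were 0.9986 to 0.9991 within groups and 0.989 to 0.990 between them. Most values form a low mode with little signal, and 59.3% of probe sets lay below its upper edge, 4.80, in both groups. The mesenchymal genes VIM, CD44, CAV1 and AXL, which mark these cells, had means of 13.51 to 15.17 in both groups, and the hormone receptor genes ESR1 and PGR read in the low mode. The third receptor gene that defines a triple-negative line, ERBB2, did not: it read 7.80 in control and 8.31 in knockdown and was called higher (limma adjusted p = 0.00251 over genes). Of the 7 mesenchymal and basal genes listed, 5 were lower (71.4%) and 0 higher, where 13.9% of all genes were lower and 19.7% higher. Their mean level was 12.33 to 12.36 in control and 12.10 to 12.15 in knockdown, and SPARC lay in the low mode. Of 6 hormone receptor and luminal genes, 2 were higher (33.3%) and 1 lower (16.7%), against the same shares of all genes. They were ERBB2, the epithelial cadherin CDH1, which went from 2.40 to 7.53, and the luminal factor GATA3, which went from 8.61 to 7.98. The part of these shifts in the results was not tested. The 8 leukocyte markers measured all lay in the low mode in both groups, with a mean level of 2.77 to 2.85 in control and 2.75 to 2.79 in knockdown. Of 10 fibroblast and endothelial markers, 8 lay there too. Of the 10, 2 were higher and 2 lower, or 20.0% each, against 19.7% and 13.9% of all genes. Their mean level was 3.72 to 3.82 in control and 3.67 to 3.81 in knockdown.

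The NF-κB genes did not move as a block. NFKBIZ was 2.74-fold higher in the knockdown arrays, while NFKBIE fell by 44.3%, RELB fell by 40.4% and NFKBIA fell by 30.6%. RELA fell by 9.84%, close to the threshold. NFKB1, NFKB2, REL and TNFAIP3 were not called. By probe set, 2 of 19 were called higher, against 12.0% of all probe sets, 4 were called lower, against 10.5%, and 13 were not called. In either direction that is 6 of 19, or 31.6%, against 22.4% of all probe sets. Among the 15 above the low mode it is 6, or 40.0%, against 52.6% of all probe sets above it. The groups did not overlap for 8 of the 19, where 33.2% of all probe sets had groups that did not overlap. These shares lie on both sides of the background, so the count of called members is not itself a result about them.

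**Figure D1:**
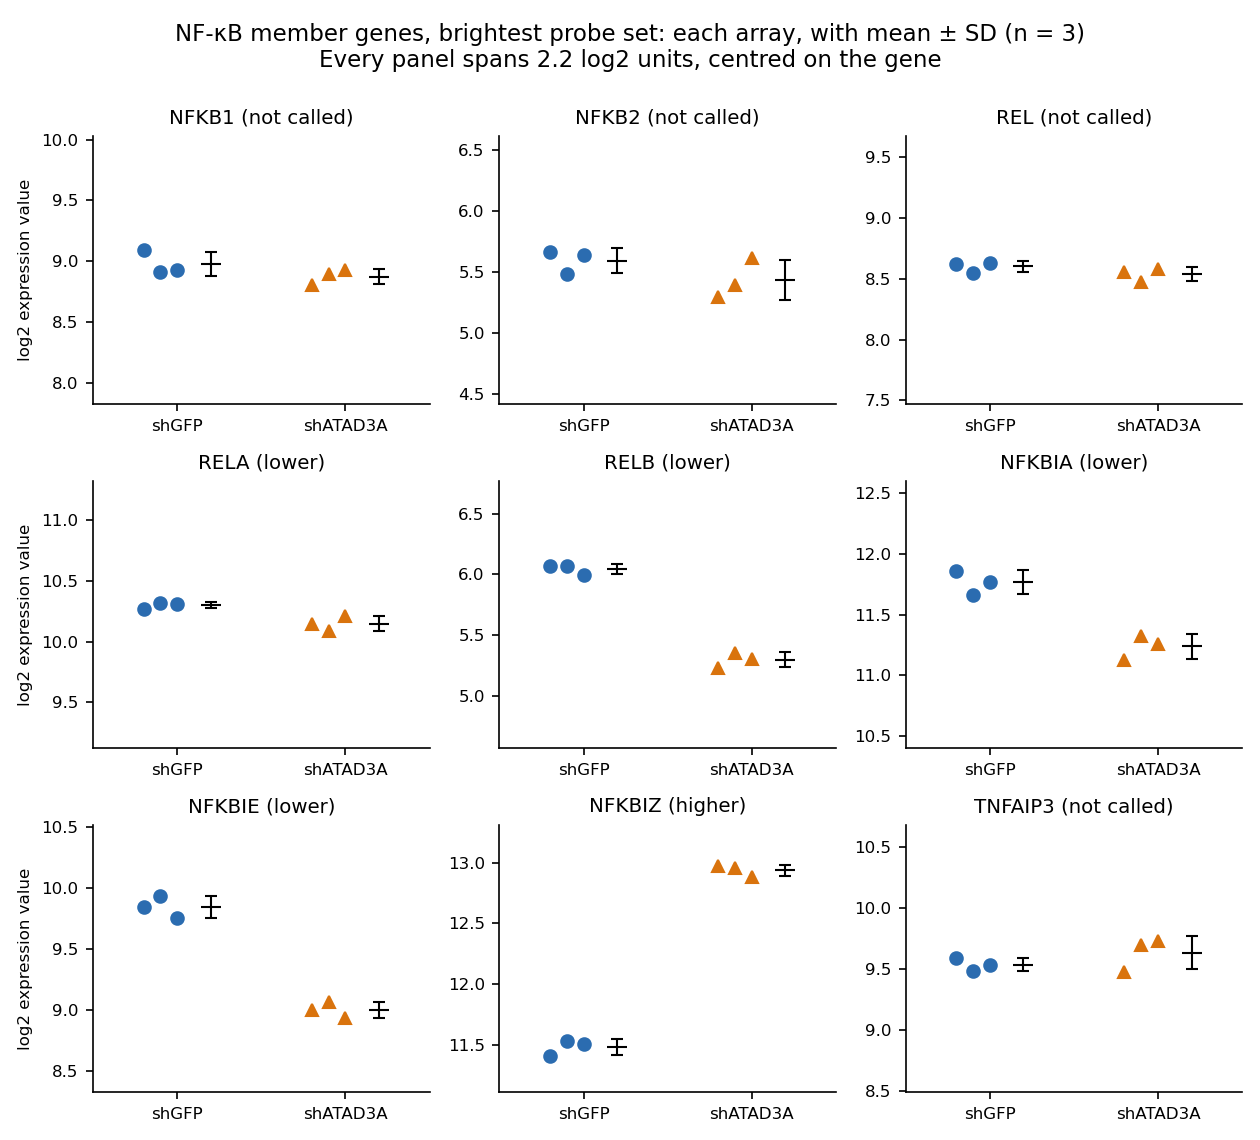
Log2 expression value of the brightest probe set of each of the 9 measured genes, 1 panel a gene, with the 3 shGFP arrays as circles, the 3 shATAD3A arrays as triangles and mean ± SD as bars. The groups lie far apart for NFKBIZ, NFKBIE, RELB and NFKBIA, close together for RELA, and overlap for NFKB1, NFKB2, REL and TNFAIP3.

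Of the subunit genes, RELB had the largest change. Its product pairs mainly with the p52 protein made from NFKB2, in the alternative branch of the pathway. RELB read 6.07, 6.07 and 5.999 in control and 5.23, 5.36 and 5.30 in knockdown. The knockdown values all lay below the control values, with a gap many times the spread within either group. The mean went from 6.04 ± 0.040 to 5.30 ± 0.061, a change of -0.75 ± 0.041 (SE; limma adjusted p = 0.000121). The knockdown mean lay only 0.50 above the edge of the low mode. Log2 differences of probe sets that dim can understate a change.

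RELA encodes p65, the subunit that carries most of the activating function of the common p50-p65 dimer. Its bright probe set, 201783_s_at, read 10.27, 10.32 and 10.31 in control and 10.15, 10.09 and 10.21 in knockdown. The groups did not overlap, but the gap was small, and the change was -0.15 ± 0.040 (SE; limma adjusted p = 0.0464). This call was lost when any 1 array other than knockdown replicate 3 was left out (adjusted p = 0.0800 to 0.147), with an intensity trend in the variance prior (adjusted p = 0.0685), and without the dimmer probe sets (adjusted p = 0.0634). The dimmer RELA probe set, 209878_s_at, read 6.50, 6.45 and 6.33 in control and 6.33, 6.13 and 5.98 in knockdown. Its change of -0.28 ± 0.097 (SE) was not called (limma adjusted p = 0.109), although its groups did not overlap. RELA 209878_s_at was called without knockdown replicate 1 (-0.37, adjusted p = 0.0264) and with array weights (-0.32, adjusted p = 0.0496). The changes of the pair of probe sets differed by 0.13, with a 95% interval from -0.16 to 0.42 (limma adjusted p = 0.574 over genes with 2 or more probe sets). That interval includes 0.

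NFKB1 encodes p105, the precursor of p50. It read 9.09, 8.92 and 8.93 in control and 8.80, 8.89 and 8.93 in knockdown. The values overlapped, and the change of -0.10 had a 95% interval from -0.25 to 0.045 (limma adjusted p = 0.371). The lower end of that interval is 0.839 of the control level. For NFKB1 209239_at the change was -0.049 without control replicate 1 (adjusted p = 0.652). NFKB2, which encodes the p52 precursor p100, read 5.66, 5.48 and 5.64 in control and 5.30, 5.39 and 5.62 in knockdown on its only probe set above the low mode. That change was -0.16, with a 95% interval from -0.40 to 0.080 (limma adjusted p = 0.402). With knockdown replicate 3 left out, NFKB2 207535_s_at gave a value of -0.25 that missed the threshold (adjusted p = 0.0856), and with knockdown replicate 1 left out it gave -0.088. The other NFKB2 probe sets lay in the low mode in both groups.

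REL encodes c-Rel, a subunit best known from lymphocytes. Its 4 probe sets above the low mode all gave small negative values, between -0.063 and -0.18, and none was called. The brightest, 228812_at, read 8.62, 8.55 and 8.63 in control and 8.56, 8.48 and 8.58 in knockdown. Its change of -0.063 had a 95% interval from -0.16 to 0.038 (limma adjusted p = 0.443). The largest, on 239486_at, was -0.18, from 7.46, 7.43 and 7.41 to 7.30, 7.15 and 7.33. Its groups did not overlap, and it missed the threshold (limma adjusted p = 0.0664). Another, 206036_s_at, had a change of -0.16 that was not called (adjusted p = 0.195) and was called without knockdown replicate 3 (-0.22, adjusted p = 0.0479). The 5 REL probe sets read 1 transcript family from 1 set of RNAs and are not independent of each other. The difference between the pair of brightest REL probe sets was 0.040, with a 95% interval from -0.14 to 0.22.

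**Figure D2:**
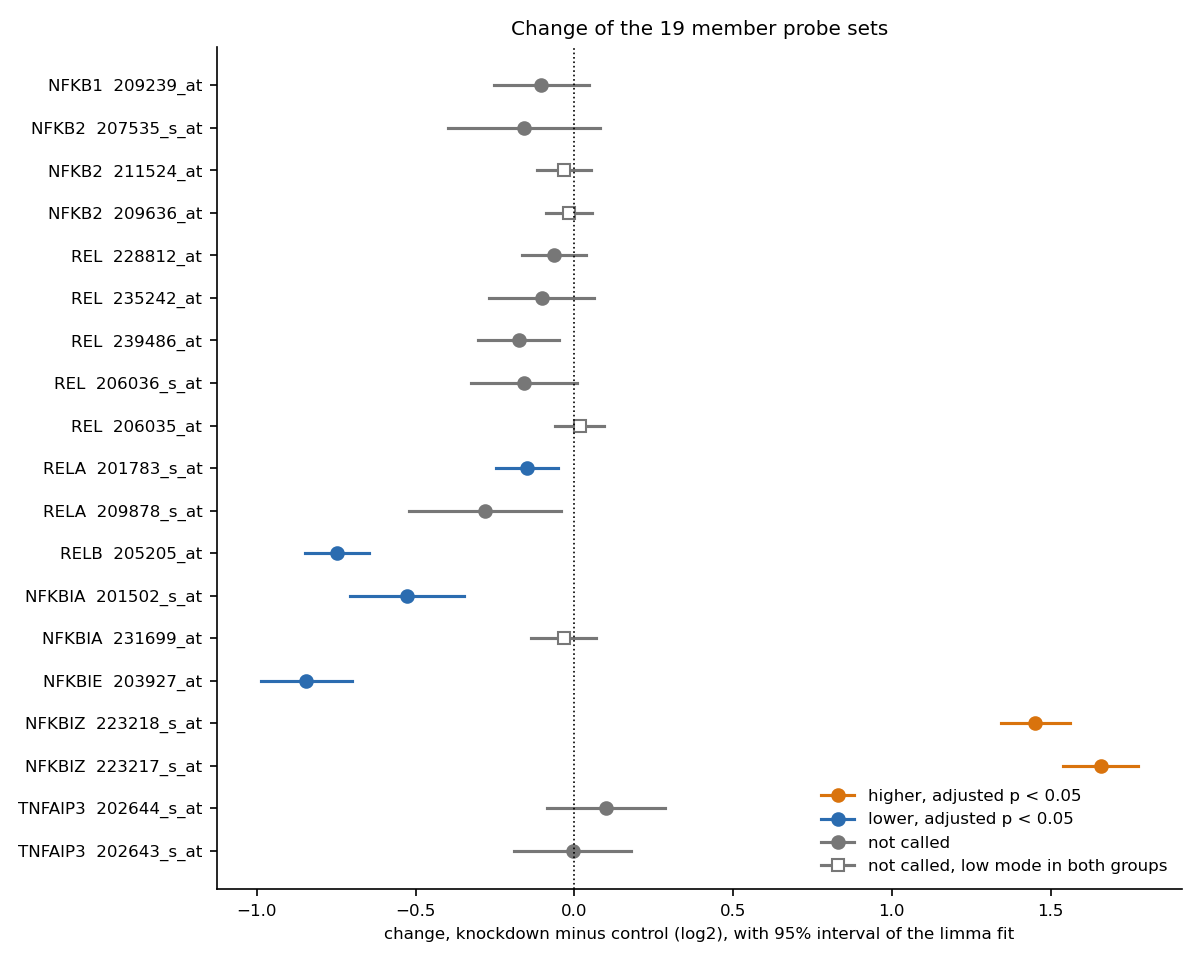
Change in log2 expression, knockdown minus control, of all 19 member probe sets with the 95% interval of the limma fit, coloured by call, with open squares for the 4 that lie in the low mode in both groups. Both NFKBIZ probe sets stand at 1.45 and 1.66, while RELB, NFKBIA and NFKBIE stand between -0.84 and -0.53 and the rest lie between -0.28 and 0.10.

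Of the cytoplasmic inhibitors, NFKBIE and NFKBIA fell, while NFKBIB, which encodes IκBβ and was named after its value was seen, read 5.004 and 5.20 and was not called (0.20, limma adjusted p = 0.686 over genes). NFKBIE, whose product IκBε binds dimers that hold p65 or c-Rel, read 9.84, 9.94 and 9.76 in control and 9.001, 9.06 and 8.93 in knockdown. Every knockdown array lay below every control array. The mean went from 9.84 ± 0.090 to 9.0 ± 0.064, a change of -0.84 ± 0.058 (SE; limma adjusted p = 0.000249). NFKBIA, whose product IκBα is the main cytoplasmic anchor of the p50-p65 dimer, read 11.86, 11.66 and 11.77 in control and 11.13, 11.33 and 11.26 in knockdown. These groups also stood apart, and the mean went from 11.77 ± 0.099 to 11.24 ± 0.10, a change of -0.53 ± 0.072 (SE; limma adjusted p = 0.00354). The other NFKBIA probe set, 231699_at, lay in the low mode at 2.41 and 2.38, and its change of -0.034 was not called. The changes of both NFKBIA probe sets differed by -0.49 ± 0.099 (SE; limma adjusted p = 0.0214), as 17.6% of the 10523 genes with 2 or more probe sets did at that threshold. This difference of probe sets was not called without control replicate 1 (-0.44, adjusted p = 0.0659) or without control replicate 3 (-0.48, adjusted p = 0.0735).

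The promoter of NFKBIA is shown because its κB site is among the best studied links in the feedback loop. The sequence is the 250 bases before the annotated gene start from RefSeq (GRCh38.p14, chr14:35404750-35404999, minus strand), written 5′ to 3′ along the gene, and capitals mark a match to the κB consensus.
NFKBIA: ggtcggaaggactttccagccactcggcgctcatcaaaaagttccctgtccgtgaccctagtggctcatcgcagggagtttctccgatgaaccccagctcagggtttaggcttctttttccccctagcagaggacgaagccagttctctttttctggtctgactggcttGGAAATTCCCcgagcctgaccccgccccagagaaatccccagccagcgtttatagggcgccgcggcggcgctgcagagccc

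NFKBIZ went the other way. Its product, IκBζ, lacks the role of a cytoplasmic anchor and joins p50 on DNA, where it is needed for genes such as LCN2 in macrophages and epithelia. The brighter probe set, 223218_s_at, read 11.41, 11.54 and 11.51 in control and 12.97, 12.96 and 12.88 in knockdown. The other, 223217_s_at, read 9.51, 9.56 and 9.48 in control and 11.13, 11.26 and 11.12 in knockdown. On both, the lowest knockdown array lay more than 1 log2 unit above the highest control array, and each was among the 311 probe sets with the smallest p. The changes were 1.45 ± 0.044 and 1.66 ± 0.048 (SE; limma adjusted p = 1.78e-05 and 1.54e-05), or 2.74-fold and 3.15-fold. The pair differed by -0.21, with a 95% interval from -0.35 to -0.060, which missed the threshold over all such genes (limma adjusted p = 0.0690). Both are of the s_at type, whose probes can match more than 1 transcript, and both stayed called under all 14 alternatives of the probe set fit, with changes of 1.41 to 1.48 and 1.61 to 1.68.

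RefSeq gives NFKBIZ 2 starts, and both windows are shown because this gene rose. Capitals mark matches to the κB consensus in the 250 bases before each start (GRCh38.p14, plus strand, chr3:101827740-101827989 for window 1 and chr3:101849264-101849513 for window 2). The probe sets do not tell which start was used.
NFKBIZ window 1: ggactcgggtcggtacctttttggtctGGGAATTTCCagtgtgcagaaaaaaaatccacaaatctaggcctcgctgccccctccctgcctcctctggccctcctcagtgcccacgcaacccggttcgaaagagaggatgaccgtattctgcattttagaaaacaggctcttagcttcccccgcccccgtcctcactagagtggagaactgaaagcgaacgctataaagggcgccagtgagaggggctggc
NFKBIZ window 2: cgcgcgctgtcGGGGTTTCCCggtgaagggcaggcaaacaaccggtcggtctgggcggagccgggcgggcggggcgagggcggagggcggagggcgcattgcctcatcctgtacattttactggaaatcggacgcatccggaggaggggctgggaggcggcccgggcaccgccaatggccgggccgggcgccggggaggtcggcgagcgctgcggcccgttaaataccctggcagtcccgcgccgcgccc

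Of the feedback enzymes among the members, only TNFAIP3 could be read. A20, its product, removes and adds ubiquitin chains on signalling proteins such as RIPK1 and so damps IKK activation. The brighter probe set, 202644_s_at, read 9.59, 9.48 and 9.53 in control and 9.48, 9.70 and 9.73 in knockdown. The groups overlapped through knockdown replicate 1, which read below all 3 control arrays. The change was 0.10, with a 95% interval from -0.087 to 0.29 (limma adjusted p = 0.539), and without knockdown replicate 1 it was 0.18 and called (adjusted p = 0.0440). The other probe set, 202643_s_at, read 8.58, 8.42 and 8.68 in control and 8.63, 8.50 and 8.53 in knockdown. Its change of -0.0053 had a 95% interval from -0.19 to 0.18, and 1.13-fold higher or 0.876 of control are the ends of that interval. The TNFAIP3 window is shown because it holds a pair of κB matches near the start (GRCh38.p14, chr6:137867009-137867258, plus strand).
TNFAIP3: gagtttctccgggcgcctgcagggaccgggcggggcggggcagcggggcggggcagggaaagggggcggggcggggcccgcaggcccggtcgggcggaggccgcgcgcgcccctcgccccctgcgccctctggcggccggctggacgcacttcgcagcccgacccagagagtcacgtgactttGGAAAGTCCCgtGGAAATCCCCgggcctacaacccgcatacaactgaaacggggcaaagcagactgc

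Matches to the κB consensus were common in these promoters. The consensus was GGGRNWYYCC, where R is A or G, N any base, W A or T and Y C or T. It was searched on both strands in RefSeq windows of 300 bases, 250 of them before the start. A match describes letters, not a bound site. A site that departs from these letters is not counted, so a window without a match may still hold a κB site. The consensus was found in 9 of 13 windows of the 8 genes that have one (69.2%), against 5.91% of all 35116 windows. By gene it was found in 7 of the 8 (87.5%), against 7.09% of all genes with a window. The members include known NF-κB targets, so a share above that of all windows follows from their choice and is no result of these data. RELA was the gene without a match, and RELB and NFKBIE had no window in the table. In NFKB1 the match began 49 bases before the first start and read GGGAATTTCC. REL held GGGAAATTCC at 47 bases before its start, with an overlapping match on the opposite strand. NFKBIA held GGAAATTCCC at 81 bases before its start, and TNFAIP3 held GGAAAGTCCC at 67 and GGAAATCCCC at 55. NFKBIZ held GGGAATTTCC at 223 bases before its first start and GGGGTTTCCC at 239 before the second. NFKB2 held matches in windows 2 and 3, the nearest 21 bases before a start, and BIRC3 held 2, at 199 and 135. Genes with a match were found among those that rose (NFKBIZ), fell (NFKBIA) and were not called (NFKB1, NFKB2, REL, TNFAIP3).

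**Figure D3:**
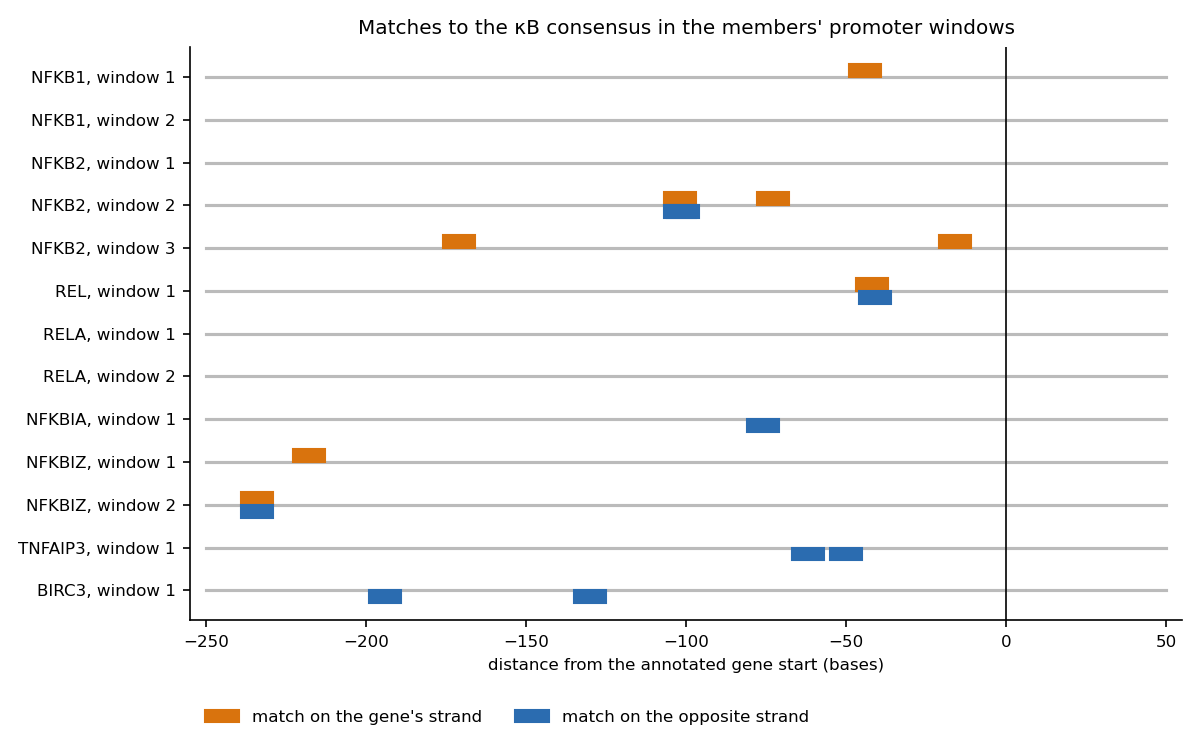
Position of matches to the κB consensus in the 13 RefSeq promoter windows of 8 genes, in bases from the annotated start (0), above the line for the gene's strand and below it for the opposite strand. Matches lie before the start in 9 windows, and neither RELA window holds one.

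With 1 probe set per gene, the brightest, 1 of the 9 genes was called higher, against 19.7% of the 19775 genes tested, and 4 lower, against 13.9%, with a median change of -0.15 against -0.00084 for all genes. The brightest probe set of each member lay above the low mode, where 52.6% of all probe sets were called in either direction. The median change of the 25 genes on either side of each member lay between -0.044 and 0.019, far smaller than the changes of NFKBIZ, NFKBIE, RELB and NFKBIA. RELB, NFKBIE and NFKBIZ kept their call and direction under all 17 alternatives of the gene fit. NFKBIA kept its call under 16. The exception left out probe sets of the s_at, x_at and a_at types wherever a gene had another, which keeps only the NFKBIA probe set in the low mode (-0.034, adjusted p = 0.727), and the average of both NFKBIA probe sets gave -0.28 (adjusted p = 0.00106). RELA was called in the gene fit (adjusted p = 0.0326) and lost the call under 7 alternatives.

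**Figure D4:**
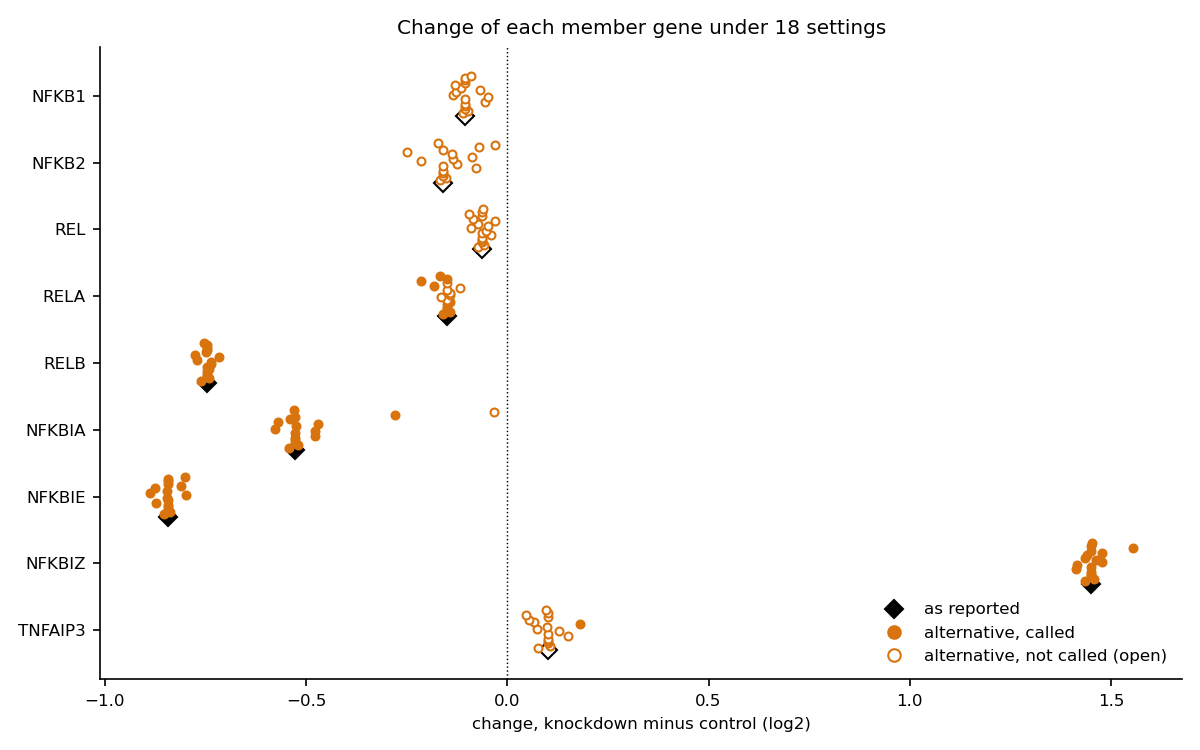
Change in log2 expression, knockdown minus control, of each of the 9 genes as reported (diamond) and under 17 alternatives (circles, filled where called). NFKBIZ stays between 1.41 and 1.55, NFKBIE between -0.89 and -0.80 and RELB between -0.78 and -0.72, while RELA stays negative with both filled and open points.

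Upstream of these genes, the kinases and adaptors that lead to IKK changed in both directions. Of 28 genes listed, 25 were measured, and 7 rose, 7 fell and 11 were not called. Each share is 28.0%, against 19.7% of all genes higher and 13.9% lower, and the median change was -0.0027, against -0.00084 for all genes. Only 2 of the 25 lay in the low mode in both groups, and 52.6% of all probe sets above it were called in either direction. Shares above those of all genes are thus not themselves a result about this list. The E3 ligase component RBCK1 (HOIL-1), part of the linear ubiquitin assembly complex, rose by 0.80 (limma adjusted p = 0.000230 over genes). MAP3K14, the kinase NIK that starts the alternative branch, rose by 0.67 (adjusted p = 0.00175), the adaptor TRAF5 by 0.60 and the IKK-related kinase TBK1 by 0.48. XIAP fell by 1.13 (adjusted p = 9.71e-05), and TAB2 and TAB3, which tie the kinase TAK1 to ubiquitin chains, fell by 1.01 and 0.98. BCL10, an adaptor of the CARD-MALT1 complex, fell by 0.77. The IKK subunits themselves, named for their role, were not called, with -0.0030 for IKBKB (adjusted p = 0.979), 0.28 for CHUK (0.0845) and -0.24 for IKBKG (0.0866). XIAP changed by -0.70 after removal of the median of its neighbouring genes. TAB2 read -0.012 (adjusted p = 0.894) without s_at types, and with probe sets averaged BCL10, TAB3 and TRAF5 read -0.44, -0.40 and 0.30.

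Other brakes of the pathway were split as well, with 5 of 18 measured genes higher, 5 lower and 8 not called. Each share is 27.8%, against 19.7% and 13.9% of all genes, and the median change was 0.021. Only 2 of the 18 lay in the low mode in both groups, so the limit given for the kinases and adaptors holds here too. PDLIM2, a nuclear ubiquitin ligase for p65, fell by 1.45 (limma adjusted p = 6.20e-06 over genes), and the deubiquitinases CYLD and OTULIN fell by 1.05 (adjusted p = 3.75e-05) and 0.71. TAX1BP1, a partner of A20, fell by 0.62. IRAK3, an inactive kinase that limits Toll-like receptor signalling, rose by 0.54 (adjusted p = 0.00352). The κB-Ras genes NKIRAS2 and NKIRAS1 rose by 0.45 and 0.33, and N4BP1 rose by 0.23. With probe sets averaged, OTULIN and N4BP1 lost their calls (-0.058, adjusted p = 0.549 and 0.16, adjusted p = 0.0733), and PDLIM2, CYLD and IRAK3 read -0.74, -0.53 and 0.35. No other PDLIM2 probe set lay above the low mode. Without s_at types NKIRAS2 read 0.23 and TAX1BP1 -1.05, and N4BP1 was also lost without control replicate 1 (adjusted p = 0.0562) or 3 (adjusted p = 0.0609).

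Among receptors and ligands, 5 of 21 measured genes rose, 6 fell and 10 were not called. The share that rose, 23.8%, is near the 19.7% of all genes, the share that fell is 28.6% against 13.9%, and the median change was 0.0012. Of the 21, 7 lay in the low mode in both groups, and 52.6% of all probe sets above it were called in either direction. LTBR, the lymphotoxin β receptor and an entry to the alternative branch, rose by 1.36 (limma adjusted p = 8.52e-05 over genes), the interleukin 1 receptor IL1R1 by 0.77, the TLR4 partner LY96 by 0.76 and the TNF receptor TNFRSF1A by 0.55. The Toll-like receptors TLR2 and TLR3 fell by 1.84 (adjusted p = 1.02e-05) and 0.97 (adjusted p = 0.0305), and TLR4 changed by -5.48. The knockdown means of TLR3, 4.30, and TLR4, 3.86, lay in the low mode. CD14, whose change was -1.60, lay in the low mode in both groups. TNF itself, named for its role, lay in the low mode in both groups at 1.91 and 1.92. With probe sets averaged LTBR, IL1R1, TLR3 and TLR4 read 0.31, 0.37, -0.42 and -3.60. No other LTBR, IL1R1 or TLR3 probe set lay above the low mode. The TLR3 call was lost without control replicate 1, 2 or 3 or knockdown replicate 3 (adjusted p = 0.0542 to 0.0918).

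Known target genes of NF-κB were equally divided, with 13 of 34 measured genes higher, 13 lower and 8 not called. Each share is 38.2%, against 19.7% and 13.9% of all genes, and the median change was -0.017. Of the 34, 7 lay in the low mode in both groups, and 52.6% of all probe sets above it were called in either direction. The acute-phase and chemokine genes CCL20, C3 and CCL5 rose by 2.89, 1.49 and 1.62 (limma adjusted p = 4.84e-06, 9.38e-06 and 0.000162 over genes), with CCL5 in the low mode in both groups. CXCL5, in the low mode in control, rose by 4.11, and read 0.042 (adjusted p = 0.555) without x_at types and 1.87 with probe sets averaged. No other CXCL5 probe set lay above the low mode. CXCL8, which encodes interleukin 8, fell by 1.88 (adjusted p = 5.88e-06), and PTGS2, the inducible cyclooxygenase, fell by 1.70. The growth factor gene CSF3 and the chemokine gene CXCL10 were lower too, with changes of -3.19 and -2.23 and knockdown levels in the low mode. Some genes were named after their values were seen. Of the related CXCL chemokines, CXCL1 fell by 1.02 while CXCL2 and CXCL3 rose by 0.57 and 1.11. The CXCL2 probe set is of the x_at type, whose probes can match more than 1 transcript. The share of its signal from other transcripts was not tested. ICAM1, an adhesion molecule, fell by 1.62 and LCN2 (lipocalin 2) rose by 1.27. IL6, also known as a target of both p65 and IκBζ, read 11.45 and 11.44 and was not called (adjusted p = 0.961). Of the 27 measured targets with a promoter window, 12 held a κB match, and of these 5 rose, 3 fell and 4 were not called. Of the 15 without a match, 6 rose, 7 fell and 2 were not called. Sites that depart from the consensus are not counted, so these 15 may still hold κB sites.

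BIRC3 (c-IAP2) belongs to the inhibitor of apoptosis family, whose other members were read. BIRC2 (c-IAP1), its closest relative, rose by 0.25 (limma adjusted p = 0.00249 over genes). NAIP fell by 0.93 (adjusted p = 0.000821), and XIAP fell as given above. NAIP read -0.17 (adjusted p = 0.365) without s_at types and -0.46 with probe sets averaged. Of the 6 genes of the list, 1 rose (16.7%) and 2 fell (33.3%), against 19.7% and 13.9% of all genes. Only 1 of the 6 lay in the low mode in both groups. BIRC5, BIRC6 and BIRC7, named after their values were seen, were not called, with 0.063, -0.22 and 0.030.

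**Figure D5:**
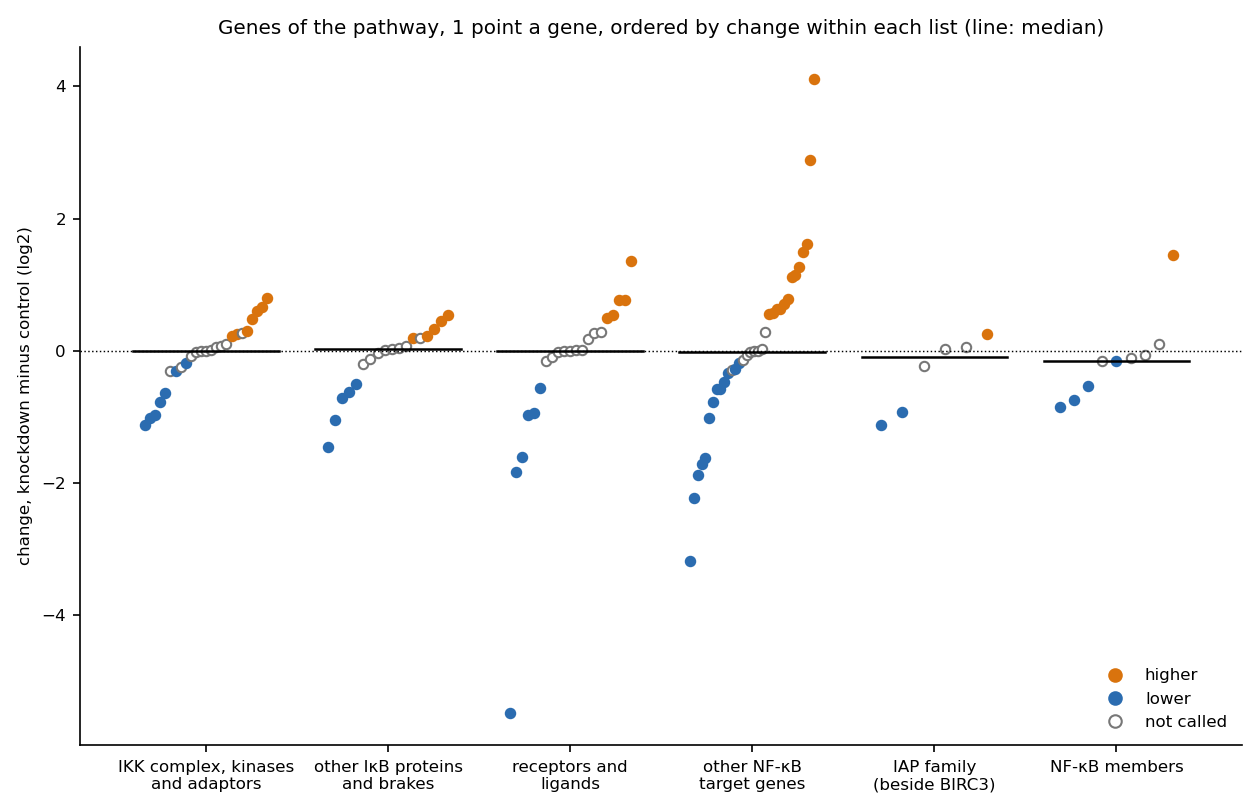
Change in log2 expression, knockdown minus control, of each measured gene in 5 lists of the NF-κB pathway and of the 9 members, 1 point a gene, filled where called, with a line at each median. Called genes lie on both sides of 0 in every list, and the medians lie between -0.15 and 0.021.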

How the data were processed

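The deposited table holds 1 log2 expression value per probe set and array for 6 Affymetrix arrays, made from 250 ng of RNA with a 3′ in vitro transcription kit per the labels' protocols. The log2 scale was read from the range of the values, 0.826 to 16.6. Per the submitters' processing notes the software was Partek, with no version, and the summary and background methods are not given in the sources used here. Each column was matched to its array by accession, and 0 were unmatched. Genes were named from the platform annotation of 2016, and 41091 probe sets had 1 symbol. Gene order and promoters came from RefSeq (GRCh38.p14). No depth applies to arrays, so their number limits the precision.

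Groups were compared with limma 3.58.1 in R 4.3.3 (lmFit and eBayes, two-sided, no covariates, no filter), over 54613 probe sets, over 19775 genes (brightest probe set), and over differences between the 2 brightest probe sets of a gene. These fits used the 6 arrays. The probe set fit and the fit of probe set differences were tested on simulated data. The largest share of identical values between any pair of arrays was 0.0165%. Genes named are the members, ATAD3A and up to 4 of the largest increases and decreases among called genes of each list, with exceptions said in the text. The members and lists were chosen with earlier results of these data known. Alternatives covered array scaling, a filter on dim probe sets, the variance prior, array weights, a block for the replicate number, each array left out in turn, a threshold of 0.01, the probe set per gene and the neighbour median. The edge of the low mode, 4.80, is the lowest point of the density of probe set means between its peaks.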

Additional observations from a re-analysis of the deposited data

How the results depend on the processing

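Of 17 alternatives, 14 were run on the ATAD3A change. It kept its call in all of these except at a threshold of 0.01 (-0.49, adjusted p = 0.0129). Averaged probe sets, the choice without s_at, x_at and a_at types and removal of the neighbour median were not tried on ATAD3A. The counts of member probe sets called stayed within 1.5 times of 2 higher and 4 lower. One count of member genes moved, with 1 to 2 called higher when single arrays were left out, the second being TNFAIP3 without knockdown replicate 1. The labels give both groups the numbers 1, 2 and 3. Deviations of same-numbered arrays correlated at -0.21, -0.11 and 0.038, and those of differently numbered arrays at -0.12 to 0.20. With 3 arrays a group, these values cannot tell whether same-numbered arrays were handled together. With the replicate block, RELA lost its call (-0.15, adjusted p = 0.115 over probe sets), RELA 209878_s_at was called (adjusted p = 0.0332), TLR3 lost its call (adjusted p = 0.0611), and 0 members had probe sets that differed. That count ran from 0 to 1 when single arrays were left out. Other brakes called higher numbered 3 at a threshold of 0.01 and 3 to 5 when single arrays were left out, and 3 were lower with probe sets averaged. Without s_at, x_at and a_at types, 8 target genes were higher, and 1 apoptosis inhibitor was lower. Reversals numbered 0 among ATAD3A, the called members and the genes of the pathway lists named for their largest changes. Genes named for their role or after their values were seen, and the cell type markers, were not followed individually under the alternatives. Quantile normalization and median centring put the median change of all genes at 0.0034 and 0.0050. Probe sets near 4.80, such as those of RELB and NFKB2, have little signal over the low mode, which limits their folds.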
